A study of Macaca mulatta with 34 samples.

Results

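Deep cerebellar nuclei (DCN) from 3 rhesus macaques given the miSCA7Stuffer vector were set against DCN from 3 macaques given EmptyCapsid. The libraries were chosen by the treatment in their titles and make up 6 of the 34 samples of the series. In replicates 2 and 3 of miSCA7Stuffer, genes of neurons and of homeostatic astrocytes were lower, and genes of macrophages, antigen presentation, complement and lymphocytes were higher, than in EmptyCapsid. Replicate 1 carried almost no vector reads, and its profile lay closer to EmptyCapsid than to replicates 2 and 3. It still differed from EmptyCapsid, with most granule cell genes higher and most homeostatic astrocyte genes lower. With all 3 miSCA7Stuffer libraries in the test, 1 gene passed. Results over all genes and for ATXN7 and ATXN1 are therefore given with all 3 libraries and with replicates 2 and 3 alone. Gene lists are given mainly for replicates 2 and 3, and no gene of any list passed with all 3.

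The series profiled RNA after adeno-associated virus (AAV) vectors that express artificial microRNAs were delivered into the monkey brain, and its second study asked how the immune response differed between cargo configurations. All animals used here received their treatment by MRI-guided injection into the DCN, and each library carries the number of a different animal. The miSCA7Stuffer group received an AAV with an artificial microRNA named for SCA7 and stuffer DNA, the StufferOnly group (3 libraries) received a vector named for the stuffer alone, and the EmptyCapsid group received capsids named as empty. Dose, time after injection and age are not stated in the sources. The promoter of the vector is not stated either, apart from mU6 in the name of a vector feature. EmptyCapsid differs from miSCA7Stuffer in the microRNA and in the stuffer together, so StufferOnly was the closer match to miSCA7Stuffer and was used where a difference between constructs was tested. Nothing in the labels says that the animals were littermates or were handled in pairs.

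The DCN are the output nuclei of the cerebellum. Large glutamatergic projection neurons there send the cerebellar signal to the brainstem and thalamus, smaller inhibitory neurons project to the inferior olive, and Purkinje cells of the cortex inhibit both. Spinocerebellar ataxia type 7 is caused by a polyglutamine expansion in ATXN7, a subunit of the deubiquitinase module of the SAGA transcription complex, and an artificial microRNA lowers its target by loading onto Argonaute after processing by Dicer. When brain tissue is injured or infected, microglia and infiltrating macrophages take up debris, astrocytes leave their homeostatic state, and T cells and antibody-secreting cells can enter the tissue.

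Vector reads separated replicate 1 from the other miSCA7Stuffer libraries. The feature taken as the stuffer vector genome is labelled GpKFBextmU6miS1newStfr, a name that holds miS1 and not SCA7. The feature of the stuffer vector genome was counted at 1.64, 349 and 257 reads per 1000000 reads in genes (RPM) in miSCA7Stuffer replicates 1, 2 and 3, against 0.151, 0.281 and 0.191 RPM in EmptyCapsid. The 1.64 RPM of replicate 1 came from 54 reads (95% Poisson interval 1.23 to 2.13 RPM), and the EmptyCapsid values came from 6, 8 and 6 reads. Replicate 1 thus lay above every EmptyCapsid library and far below replicates 2 and 3, which lay within or near the 349.7, 625.3 and 247.5 RPM of the StufferOnly libraries. The groups did not overlap, and the log2 RPM of miSCA7Stuffer averaged 8.04 above that of EmptyCapsid (two-sided exact permutation test, p = 0.1, the smallest that 3 against 3 allows). The stuffer feature itself had 1.09, 242 and 171 RPM in miSCA7Stuffer, against 0.0503, 0.281 and 0.191 RPM in EmptyCapsid. The RNAi expression cassette had 0 reads in replicate 1, which allows up to 0.0909 RPM, and 11.4 and 7.63 RPM in replicates 2 and 3, against 0.0251, 0 and 0 RPM in EmptyCapsid. In StufferOnly the cassette feature had 5.49, 7.17 and 3.24 RPM, so its reads were not particular to miSCA7Stuffer.

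**Figure D1:**
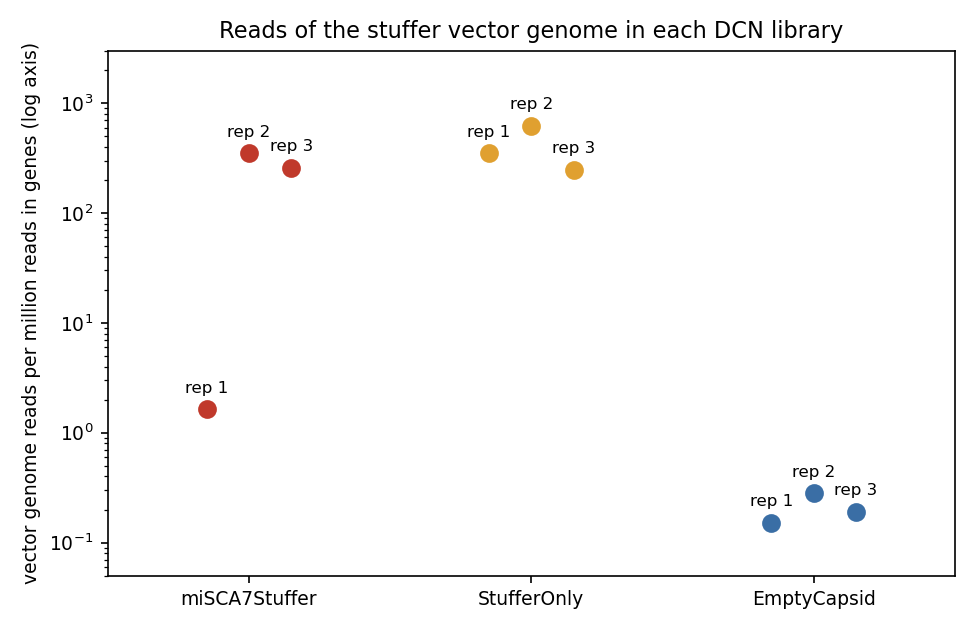
Reads of the stuffer vector genome per 1000000 reads in genes (RPM), on a log axis, with 1 point for each library of miSCA7Stuffer, StufferOnly and EmptyCapsid. Replicate 1 of miSCA7Stuffer, at 1.64, sits between the EmptyCapsid points and the other miSCA7Stuffer points at 349 and 257.

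The libraries held 20978241 to 33001265 reads in genes in miSCA7Stuffer and 28496977 to 39792653 in EmptyCapsid. Across genes, the correlation of log2 counts per 1000000 (CPM) of replicate 1 was 0.964 to 0.97 with the EmptyCapsid libraries and 0.894 to 0.896 with replicates 2 and 3. The EmptyCapsid libraries correlated at 0.977 to 0.98 with each other, above all values of replicate 1. Replicates 2 and 3 correlated at 0.969 with each other, at 0.898 to 0.909 with EmptyCapsid and at 0.947 to 0.966 with StufferOnly. These are descriptions across genes, which are not independent. Replicate 1 also stood apart in granule cell genes, which mark the cerebellar cortex. Of 22 tested, 21 lay above all 3 EmptyCapsid libraries, against 32.4% of all genes tested, and their summed level was 3548, 954 and 745 CPM in miSCA7Stuffer replicates 1, 2 and 3, against 898.5, 766 and 854 CPM in EmptyCapsid. The GABA receptor subunit GABRA6, a defining granule marker, had 86.2, 22.5 and 4.36 CPM in miSCA7Stuffer, against 1.96, 0.299 and 1.49 CPM in EmptyCapsid. The part of this cortical signal in the results was not tested. The projection neuron marker SLC17A6 was present in every library, as the tissue label says. TBR1, also taken as a marker of DCN projection neurons, had 0 to 22 reads in each.

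With all 3 miSCA7Stuffer libraries, edgeR's quasi-likelihood test called 1 of 20882 genes higher (0.00479%) and 0 lower (0.0%) than EmptyCapsid at a Benjamini-Hochberg adjusted p under 0.05. Without adjustment, 4808 genes (23.0%) had a p under 0.05, and DESeq2 called 1507 higher and 832 lower at the adjusted threshold. The gene that passed was TMEM266, which encodes a voltage-sensing membrane protein. It had 18.2, 27.9 and 22.9 CPM in miSCA7Stuffer, against 3.82, 4.53 and 3.32 CPM in EmptyCapsid. All 3 miSCA7Stuffer libraries were high, replicate 1 included, and the log2 fold change was 2.58 (SE 0.21, adjusted p = 0.0229). The 3 StufferOnly libraries were high as well, at 29.3, 37.6 and 34.2 CPM. The call was lost when any 1 library other than miSCA7Stuffer replicate 1 was left out (adjusted p 0.0687 to 0.311). The genes with the smallest p among those lower, SLC16A6, SMIM17, CHST9, SLIT2 and FRZB, did not pass (adjusted p = 0.121 each). The secreted axon guidance factor SLIT2 had 16.3, 11.5 and 17.4 CPM in miSCA7Stuffer, against 33.6, 31.6 and 33.1 CPM in EmptyCapsid, and the secreted Wnt antagonist FRZB had 23.2, 22.1 and 15 CPM, against 41.5, 44.2 and 45.8 CPM. Neither gene's libraries overlapped between the groups, which held for 2485 genes with miSCA7Stuffer higher (11.9%) and 2686 with it lower (12.9%).

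With replicates 2 and 3 alone, 3367 of 21539 genes were higher (15.6%) and 3616 lower (16.8%) than in EmptyCapsid by the same test, of which 1969 and 2056 differed by more than 2-fold. Without adjustment, 9429 genes (43.8%) had a p under 0.05, and the median log2 fold change over all genes was 0.02. Without replicate 2 the counts were 1928 higher and 1664 lower, and without replicate 3 they were 2185 and 2296. In either case the lone miSCA7Stuffer library was assumed to vary like the other groups. Replicate 1 differed little from EmptyCapsid at the genes higher in replicates 2 and 3, and at the genes lower it lay below the EmptyCapsid range more often than over all genes tested. Of the genes higher in replicates 2 and 3, replicate 1 lay above the EmptyCapsid range for 34.5%, within it for 37.0% and below it for 28.5%, against 32.4%, 36.5% and 31.2% of all genes tested. Of the genes lower, it lay below the range for 44.3% and above it for 28.9%. The median log2 difference from the EmptyCapsid mean was 0.01 in replicate 1, 1.26 in replicate 2 and 1.16 in replicate 3 among the genes higher, and -0.08, -1.14 and -1.09 among the genes lower.

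**Figure D2:**
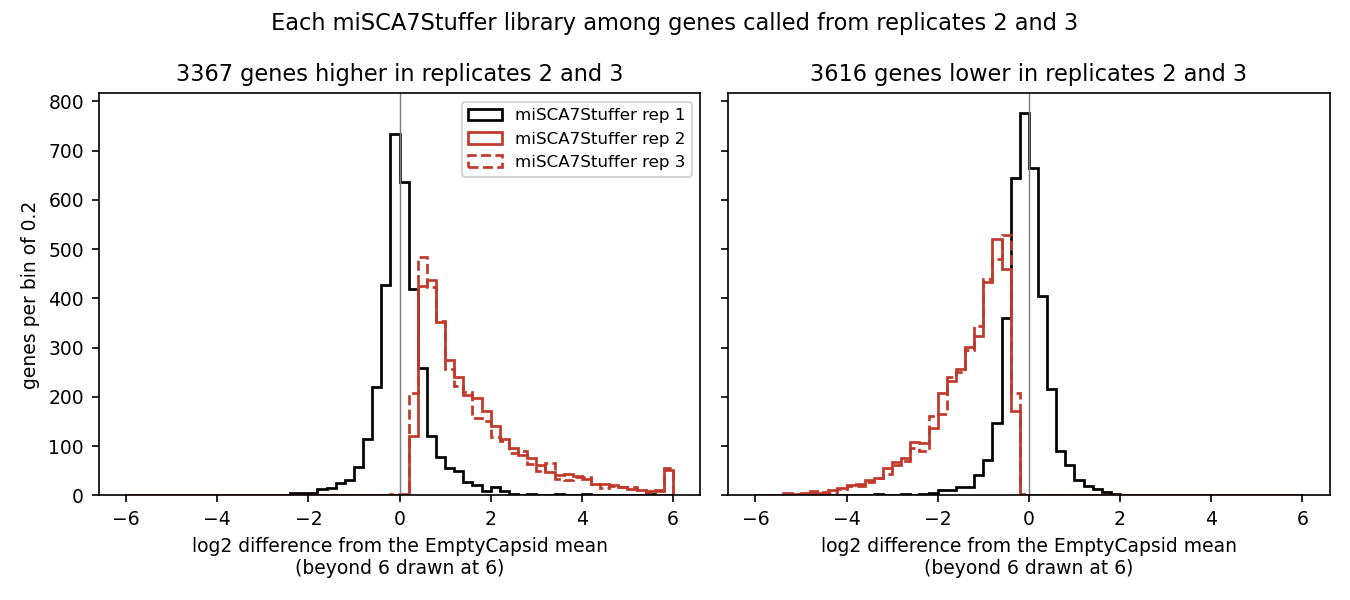
Number of genes by their log2 difference from the EmptyCapsid mean in each miSCA7Stuffer library, for the 3367 genes called higher (left) and the 3616 called lower (right) from replicates 2 and 3; values beyond 6 are drawn at 6. The line of replicate 1 peaks near 0 in both panels, and replicates 2 and 3 lie to one side because they chose the genes.

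ATXN7, the gene that the cargo is named for, was a little lower in replicates 2 and 3 without passing the test. It had 37.0, 31.0 and 24.6 CPM in miSCA7Stuffer, against 36.8, 32.7 and 34.5 CPM in EmptyCapsid. Replicate 1 was just above the highest EmptyCapsid library, and replicates 2 and 3 lay below all 3 EmptyCapsid libraries. With all 3 libraries its mean was 89.1% of the EmptyCapsid mean (log2 fold change -0.16, SE 0.16, adjusted p = 0.553; exact permutation p = 0.5). With replicates 2 and 3 it was 80.3% (log2 fold change -0.33, SE 0.13, adjusted p = 0.0817; exact permutation p = 0.1, the smallest that 2 against 3 allows). In StufferOnly it had 40.8, 46.1 and 42.5 CPM. Against StufferOnly its log2 fold change was -0.48 with all 3 libraries (SE 0.16, adjusted p = 0.364). With replicates 2 and 3 it was -0.55 (SE 0.13, adjusted p = 0.0732), and neither passed.

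ATXN1, the spinocerebellar ataxia type 1 gene and the target of the miS1 microRNA used elsewhere in the series, had 58.9, 24.7 and 38.9 CPM in miSCA7Stuffer, against 45.7, 53.6 and 57.5 CPM in EmptyCapsid. Replicate 1 was the highest of the 6 libraries, and replicates 2 and 3 were the lowest. With all 3 the log2 fold change was -0.35 (SE 0.27, adjusted p = 0.443), and with replicates 2 and 3 ATXN1 fell to 60.9% of the EmptyCapsid mean (log2 fold change -0.73, SE 0.20, adjusted p = 0.0219). That call was lost without EmptyCapsid replicate 2 (adjusted p = 0.0597), EmptyCapsid replicate 3 (0.0664) or miSCA7Stuffer replicate 2 (0.141). In StufferOnly ATXN1 had 49.6, 47.8 and 50.2 CPM. Against StufferOnly its log2 fold change with replicates 2 and 3 was -0.54 (SE 0.20, adjusted p = 0.187) and did not pass. The vector feature named miS1 had 38 and 28 reads in replicates 2 and 3 and 0 in replicate 1, and its part was not tested. General neuronal genes were also lower in replicates 2 and 3, and their part in the levels of ATXN7 and ATXN1 was not tested.

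Among 19 other genes of the SAGA complex and its ATXN7-like subunits, 3 rose and 2 fell in replicates 2 and 3, with a median log2 fold change of -0.10. These counts are at or under the shares over all genes tested (15.6% higher and 16.8% lower) and so are no result about the complex. SUPT20H, a core subunit, had 57.8, 77.9 and 74.9 CPM in miSCA7Stuffer, against 54.9, 55.2 and 53.4 CPM in EmptyCapsid (log2 fold change 0.47, SE 0.10, adjusted p = 0.007), and TRRAP, the scaffold that binds activators, differed by 0.46 on the log2 scale. ATXN7L3B, a relative of the deubiquitinase adaptor ATXN7L3, had 198, 144 and 127 CPM, against 190.1, 186 and 187 CPM (log2 fold change -0.49, SE 0.11, adjusted p = 0.0101). The calls of SUPT20H and TRRAP were lost without miSCA7Stuffer replicate 2 (adjusted p = 0.0573 and 0.0757), and that of ATXN7L3B without replicate 3 (0.0813).

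In replicates 2 and 3, genes of the DCN projection neurons had the lowest median of the lists examined. Of 23 tested, 17 fell in replicates 2 and 3 and 0 rose, and their median log2 fold change was -3.06. SLC17A6, the vesicular glutamate transporter of these neurons, had 112, 5.17 and 4.72 CPM in miSCA7Stuffer, against 153, 181 and 180.1 CPM in EmptyCapsid (log2 fold change -5.13, SE 0.39, adjusted p = 6e-05). NEFH, the heavy neurofilament subunit of large axons, had 629, 15.1 and 31.4 CPM, against 547, 788 and 955 CPM (-5.06, SE 0.55, adjusted p = 0.000373). Replicate 1 lay inside the EmptyCapsid range for NEFH and below it for SLC17A6, and replicates 2 and 3 were far below in both genes. NEFM, the medium neurofilament, fell by 4.40 on the log2 scale. The summed level of the list was 3774, 1322 and 1347 CPM in miSCA7Stuffer, against 3724, 5002 and 5320 CPM in EmptyCapsid. With all 3 libraries 0 of the 23 passed, and the median was -1.14. In bulk tissue, fewer cells of a type and less RNA per cell cannot be told apart.

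The other neuronal lists fell too, apart from granule cells. Of 32 general neuronal genes, 26 fell and 0 rose in replicates 2 and 3 (median log2 fold change -2.24), and 15 of 19 genes of inhibitory neurons fell (median -1.79) while 1 rose. SLC6A5, the glycine transporter of glycinergic neurons, had 31.0, 3.09 and 3.15 CPM in miSCA7Stuffer, against 57.9, 51.2 and 39.4 CPM in EmptyCapsid (log2 fold change -4.0, SE 0.51, adjusted p = 0.000745). GAD1, the GABA-synthesising enzyme, moved less, at 105, 33.4 and 56.6 CPM, against 109.8, 118 and 97.3 CPM (-1.28, SE 0.29, adjusted p = 0.00997), and its call was lost without miSCA7Stuffer replicate 2 (0.083). Replicates 2 and 3 lay below every EmptyCapsid library in both genes, and replicate 1 lay inside the EmptyCapsid range for GAD1 and below it for SLC6A5. The summed level of the general neuronal list was 8742, 1662 and 1731 CPM in miSCA7Stuffer, against 7405, 8079 and 8727 CPM in EmptyCapsid, so replicate 1 was at the top of the range.

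Among genes with the largest falls, the rule of size also took C1QL3, a secreted synaptic organiser, CBLN4, a cerebellin of inhibitory synapses, CHRNA2, a nicotinic receptor subunit, and TAFA1, FREM3 and MYBPC1. Their log2 fold changes in replicates 2 and 3 lay between -5.08 for C1QL3 and -4.72 for MYBPC1, with adjusted p of 0.00034 to 0.00403. CHRNA2 had 18.5, 1.69 and 2.29 CPM in miSCA7Stuffer, against 47.8, 60.7 and 52.0 CPM in EmptyCapsid, with replicate 1 also below the EmptyCapsid range.

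Purkinje and granule cells belong to the cerebellar cortex, and the summed levels of their genes differed more between the libraries of miSCA7Stuffer than between those of EmptyCapsid. The Purkinje list summed to 1988, 871.5 and 888.5 CPM in miSCA7Stuffer, against 1387, 1358 and 1260.0 CPM in EmptyCapsid. Of 26 Purkinje genes, 14 fell and 0 rose in replicates 2 and 3 (median log2 fold change -0.93), and with all 3 libraries the median was -0.01. CALB1, the calcium buffer calbindin, had 75.6, 13.4 and 12.9 CPM in miSCA7Stuffer, against 27.7, 21.3 and 28.5 CPM in EmptyCapsid (log2 fold change -0.99, SE 0.18, adjusted p = 0.00434). CA8, a Purkinje-enriched partner of the inositol trisphosphate receptor, had 53.5, 3.37 and 3.96 CPM, against 26.3, 11.3 and 18.0 CPM (-2.35, SE 0.40, adjusted p = 0.00292). In both genes replicate 1 was the highest library and replicates 2 and 3 the lowest. Of 22 granule genes, 4 fell, near the 16.8% of all genes, and 0 rose in replicates 2 and 3, with a median of 0.01. The cadherin FAT2 had 389, 100.5 and 27.9 CPM, against 11.5, 6.36 and 14.0 CPM, and did not pass (log2 fold change 2.57, adjusted p = 0.141). The FAT2 levels of replicates 2 and 3 were also above EmptyCapsid, in a gene whose StufferOnly libraries had 5.71, 184 and 10.9 CPM.

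**Figure D3:**
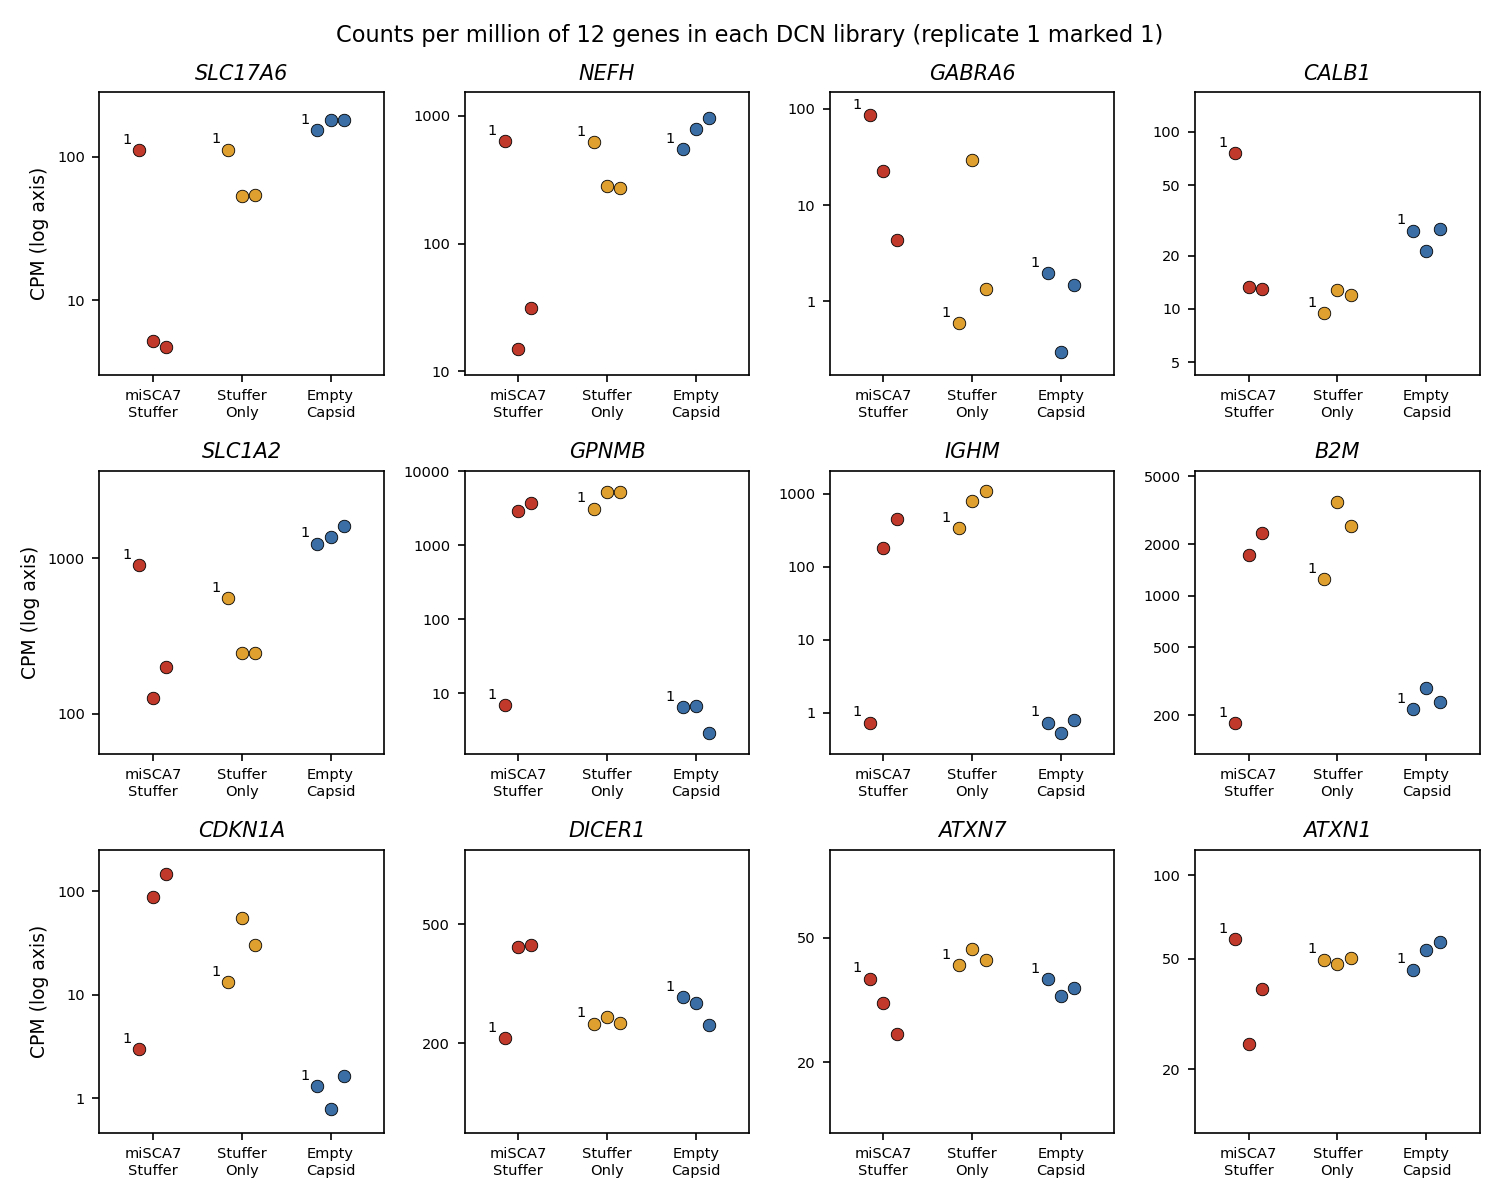
CPM on log axes for 12 genes in each library of miSCA7Stuffer, StufferOnly and EmptyCapsid, with replicate 1 of each group marked. Replicate 1 of miSCA7Stuffer sits with EmptyCapsid for NEFH and IGHM, just above it for GPNMB, below it for B2M, and above it for GABRA6 and CALB1.

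Nearly all homeostatic astrocyte genes fell. In replicates 2 and 3, 18 of 20 fell and 0 rose (median log2 fold change -1.98). The glutamate transporter SLC1A2, which clears glutamate from synapses, had 899, 126 and 198 CPM in miSCA7Stuffer, against 1241, 1361 and 1602 CPM in EmptyCapsid (log2 fold change -3.13, SE 0.42, adjusted p = 0.001). GJB6, the gap junction protein connexin 30, had 72.5, 5.24 and 4.32 CPM, against 109, 119.7 and 113 CPM (-4.59, SE 0.63, adjusted p = 0.00109). The water channel AQP4 had 1369, 532 and 952 CPM, against 2630.3, 2403 and 2633 CPM (-1.80, SE 0.39, adjusted p = 0.00826), and its call was lost without miSCA7Stuffer replicate 2 (0.0739). In these genes replicate 1 was also below every EmptyCapsid library. For the whole list, 17 of 20 genes had all 3 miSCA7Stuffer libraries below all 3 EmptyCapsid libraries, against the background of 12.9%, and the all-3 median was -1.34, with 0 genes passing.

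Reactive astrocyte genes rose in part. In replicates 2 and 3, 13 of 25 rose and 4 fell (median log2 fold change 1.05), the falls near the 16.8% of all genes. The intermediate filament VIM had 46.8, 503 and 816 CPM in miSCA7Stuffer, against 57.4, 53.6 and 61.4 CPM in EmptyCapsid (log2 fold change 3.51, SE 0.28, adjusted p = 6.81e-05), and the copper-carrying ferroxidase CP had 12.6, 219 and 276 CPM, against 14.3, 16.8 and 14.9 CPM (4.0, SE 0.32, adjusted p = 7.93e-05). Replicate 1 was below the EmptyCapsid range in both. VIM and S100A11, which also rose, are expressed by macrophages as well as astrocytes. GFAP, the filament that defines the reactive state, did not pass and pointed the other way, at 6197, 1969 and 4419.8 CPM, against 6356, 5946 and 6020.3 CPM (-0.95, SE 0.39, adjusted p = 0.0959).

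Of 23 oligodendrocyte genes, 4 fell, near the 16.8% of all genes, and 0 rose in replicates 2 and 3, with a median log2 fold change of -0.02. MBP, myelin basic protein, had 18541, 11200 and 15053 CPM in miSCA7Stuffer, against 22922, 21758 and 14599 CPM in EmptyCapsid, so the groups overlapped (-0.60, SE 0.24, adjusted p = 0.0826). FA2H, which makes the hydroxylated lipids of myelin, was among the falls, at 149, 79.3 and 76.1 CPM, against 138, 118 and 111 CPM (-0.67, SE 0.13, adjusted p = 0.00502). OPALIN, a membrane protein of mature oligodendrocytes, had 47.6, 12.2 and 15.2 CPM, against 73.0, 39.6 and 50.8 CPM (-2.0, SE 0.45, adjusted p = 0.00985), and its call was lost without miSCA7Stuffer replicate 2 (0.0854). The other falls were the myelin protein MOBP (-0.55, adjusted p = 0.0389) and BCAS1 (-0.66, adjusted p = 0.0151), the second named here after its values were seen. A further ID of MOBP in the tables did not pass (-0.36, adjusted p = 0.102). The calls of MOBP and BCAS1 were also lost without that library (0.256 and 0.0904), and that of MOBP without EmptyCapsid replicate 1 or 2 or StufferOnly replicate 3 (0.0508 to 0.115) and with the replicate block (0.106). Of 14 genes of oligodendrocyte precursors, 9 fell and 0 rose (median -0.77). BCAN, the matrix proteoglycan brevican, had 184, 63.1 and 44.5 CPM, against 203, 206 and 159 CPM (-1.83, SE 0.31, adjusted p = 0.00298), and astrocytes express BCAN too.

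Of 21 cholesterol synthesis genes, 15 fell and 1 rose in replicates 2 and 3 (median log2 fold change -1.06). STARD4, a sterol carrier, had 79.8, 16.5 and 21.9 CPM in miSCA7Stuffer, against 83.0, 77.3 and 86.7 CPM in EmptyCapsid (log2 fold change -2.12, SE 0.24, adjusted p = 0.000457), with replicate 1 inside the EmptyCapsid range. The riser was FDFT1, squalene synthase, the first enzyme committed to sterols, named here after its values were seen. It had 250.5, 1311 and 1731 CPM in miSCA7Stuffer, against 289, 282 and 262 CPM in EmptyCapsid (2.44, SE 0.31, adjusted p = 0.00071), while StufferOnly had 1784, 4227 and 2518 CPM. FDFT1 was below the EmptyCapsid range in replicate 1 and far above it in replicates 2 and 3.

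**Figure D4:**
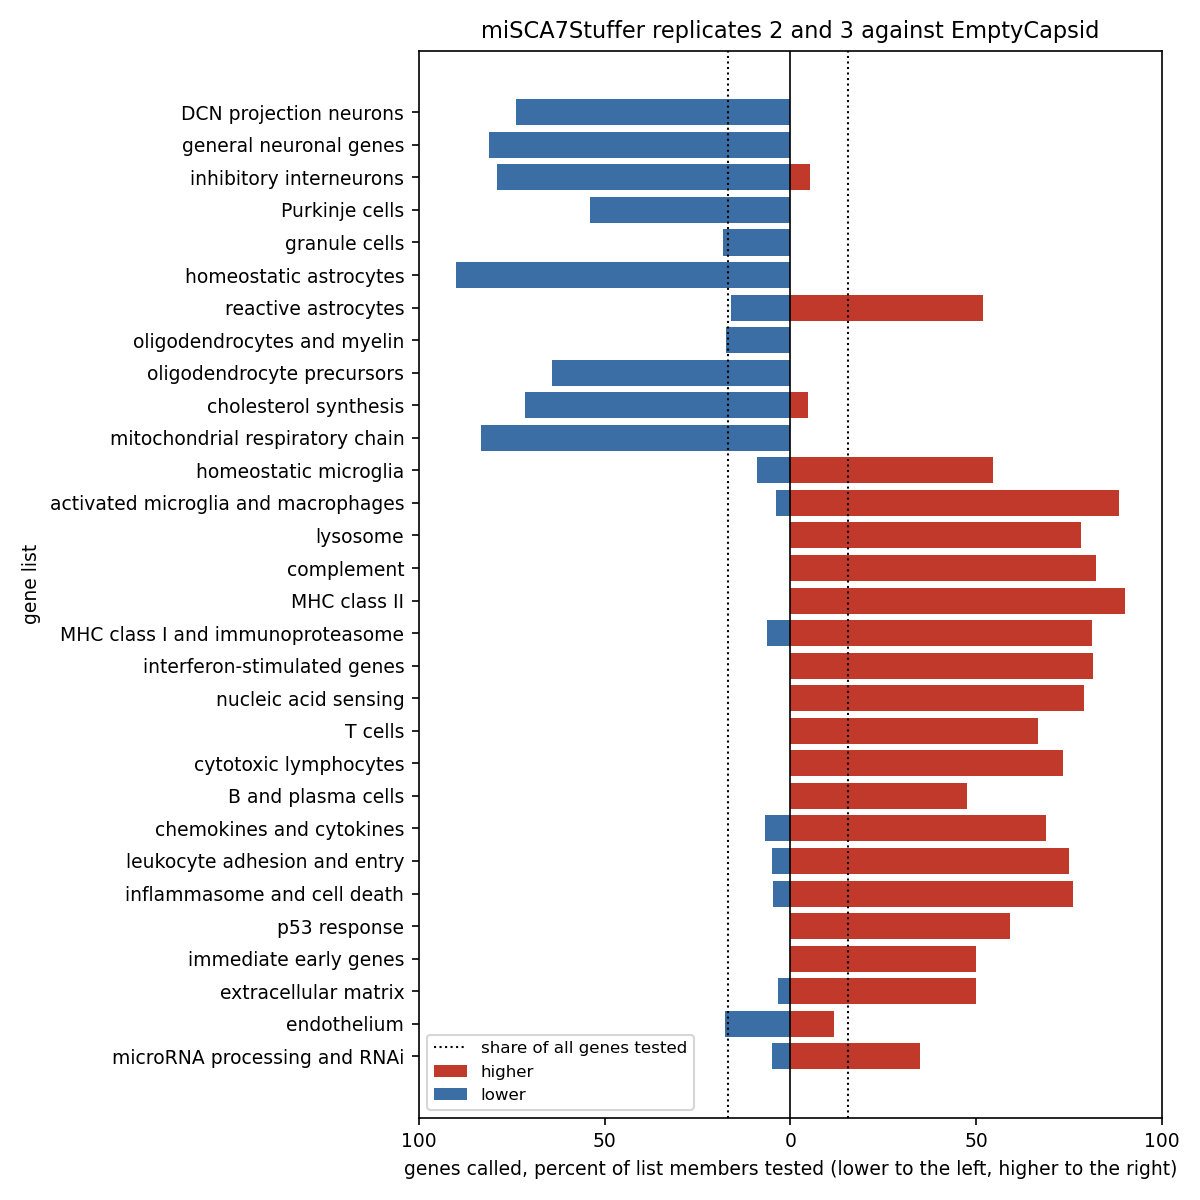
Percent of the tested genes of each list that were called higher (bars to the right) or lower (bars to the left) in miSCA7Stuffer replicates 2 and 3 against EmptyCapsid; dotted lines mark the shares over all genes tested, 15.6% higher and 16.8% lower. Neuronal, astrocyte, precursor, sterol and mitochondrial lists extend to the left and immune lists to the right, and granule and myelin lists reach about the dotted line for lower calls, with no higher call.

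Genes of activated microglia and macrophages rose. In replicates 2 and 3, 23 of 26 rose and 1 fell (median log2 fold change 2.80). GPNMB, a glycoprotein of lipid-laden phagocytes, had 6.94, 2946 and 3737 CPM in miSCA7Stuffer, against 6.52, 6.81 and 2.89 CPM in EmptyCapsid (log2 fold change 9.26, SE 0.45, adjusted p = 7.95e-06). CHIT1, a chitinase secreted by lipid-laden macrophages, had 1.34, 1908 and 1176 CPM, against 1.52, 0.749 and 0.73 CPM (10.53, SE 0.82, adjusted p = 6.45e-05). CD68, a lysosomal glycoprotein of phagocytes, had 17.9, 492 and 597 CPM, against 20.1, 15.5 and 16.7 CPM (4.95, SE 0.22, adjusted p = 7.28e-06). Replicate 1 lay at or within the EmptyCapsid range in CD68 and CHIT1 and just above it in GPNMB. PLIN2, which coats lipid droplets, rose by 2.83 on the log2 scale, and CDH1 and SOAT2, an adhesion protein and a cholesterol esterifying enzyme, were among the 10 largest rises.

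Homeostatic microglia genes rose in part. Of 11 tested, 6 rose and 1 fell in replicates 2 and 3 (median log2 fold change 1.07), against 15.6% higher and 16.8% lower over all genes tested. The 1 fall was under that share and is no result about the list. CX3CR1, the fractalkine receptor, fell, at 102, 26.7 and 31.6 CPM in miSCA7Stuffer, against 116, 136 and 159 CPM in EmptyCapsid (log2 fold change -2.25, SE 0.50, adjusted p = 0.00904), and its call was lost without miSCA7Stuffer replicate 2 (0.0778). The purinergic receptor P2RY12, a defining marker, had 62.8, 67.0 and 48.1 CPM, against 72.1, 83.3 and 102 CPM, and did not pass (-0.60, SE 0.31, adjusted p = 0.167), while TMEM119 had at most 5 reads in any library. The macrophage markers MSR1, a scavenger receptor, and CD163, the haemoglobin receptor, rose by 5.10 and 2.58 on the log2 scale. Of 23 lysosome genes, 18 rose and 0 fell (median 1.07), among them ASAH1, acid ceramidase, at 122, 764 and 755 CPM, against 154, 133 and 129 CPM.

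Complement and antigen presentation rose in replicates 2 and 3. Of 17 complement genes 14 rose and 0 fell (median log2 fold change 2.13), of 10 MHC class II genes 9 rose and 0 fell (2.56), and of 16 genes of MHC class I and the immunoproteasome 13 rose and 1 fell (1.47). C1QB, a chain of the classical initiator C1q, had 21.1, 257 and 185 CPM in miSCA7Stuffer, against 21.4, 18.4 and 11.7 CPM in EmptyCapsid (log2 fold change 3.67, SE 0.24, adjusted p = 3.47e-05). CFB, factor B of the alternative pathway, had 12.6, 129.6 and 128 CPM, against 16.5, 13.6 and 13.1 CPM (3.14, SE 0.16, adjusted p = 9.53e-06). The central component C3 did not pass, at 424, 992 and 562 CPM, against 695, 762 and 507 CPM (0.23, SE 0.24, adjusted p = 0.495), and was looked up after the rule. Replicate 1 lay inside the EmptyCapsid range of C1QB and below that of CFB and C3.

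IFI30, the lysosomal thiol reductase of antigen processing, had 9.10, 439.8 and 429 CPM in miSCA7Stuffer, against 7.09, 8.12 and 9.12 CPM in EmptyCapsid (log2 fold change 5.73, SE 0.31, adjusted p = 1.32e-05). MAMU-DRA, the macaque class II alpha chain, had 64.7, 504 and 441 CPM, against 72.8, 63.8 and 60.3 CPM (2.83, SE 0.26, adjusted p = 0.000165). B2M, the light chain of class I, had 179, 1733 and 2325 CPM, against 217, 289 and 239 CPM (3.01, SE 0.37, adjusted p = 0.00063). The class I gene that fell was TAPBPL, a peptide editor, at 287, 50.1 and 45.1 CPM, against 288, 349 and 389 CPM (-2.86, SE 0.31, adjusted p = 0.000342). Replicate 1 lay inside the EmptyCapsid range of IFI30 and MAMU-DRA and below it for B2M and TAPBPL. The macaque MHC holds many similar copies, and reads shared between them are assigned with uncertainty.

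Interferon-stimulated genes rose as a group of genes. In replicates 2 and 3, 35 of 43 rose and 0 fell (median log2 fold change 1.44), and replicate 1 lay below the EmptyCapsid range for 24 of the 43 and above it for 8, against 31.2% and 32.4% of all genes tested. TRIM22, an antiviral ubiquitin ligase, had 27.0, 131 and 138 CPM in miSCA7Stuffer, against 34, 36 and 41.6 CPM in EmptyCapsid (log2 fold change 1.84, SE 0.13, adjusted p = 4.19e-05). DDX60, a helicase of RNA sensing, had 5.84, 34.2 and 64.5 CPM, against 5.83, 5.43 and 5.24 CPM (3.15, SE 0.26, adjusted p = 9.23e-05), and MX2, a restriction factor, had 6.35, 45.5 and 73.6 CPM, against 8.43, 8.95 and 11.2 CPM (2.63, SE 0.23, adjusted p = 0.000132). Of 19 genes of nucleic acid sensing, 15 rose and 0 fell (median 1.46). They included TLR8, an endosomal receptor of single-stranded RNA, CGAS, the cytosolic DNA sensor, and UNC93B1, which carries Toll-like receptors to endosomes, at log2 fold changes of 2.48, 1.85 and 2.20. CGAS was low throughout, at 1.74, 7.63 and 7.06 CPM, against 1.70, 2.21 and 2.12 CPM.

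Lymphocyte genes were higher at low absolute levels, apart from immunoglobulins. Of 30 T cell genes 20 rose and 0 fell in replicates 2 and 3 (median log2 fold change 3.19), of 15 cytotoxic genes 11 rose and 0 fell (3.37, or 3.20 with genes at 0 reads in EmptyCapsid held at their bound), and of 21 genes of B and plasma cells 10 rose and 0 fell (1.59). CTLA4, CCR7, KLRB1, IFNG and CD79B of these lists had 0 EmptyCapsid reads. They passed the filter only through the other groups and could not fall, so the counts lean towards rises. The T cell genes CD3D and THEMIS, with 1 and 2 EmptyCapsid reads, are near that limit. CD3E, a subunit of the T cell receptor complex, had 2.11, 8.58 and 11.4 CPM in miSCA7Stuffer, against 1.18, 1.46 and 1.79 CPM in EmptyCapsid (log2 fold change 2.74, SE 0.49, adjusted p = 0.00368). CD3D, with 1 read in all of EmptyCapsid, had 0, 1.20 and 1.89 CPM. CD52, a surface glycoprotein of lymphocytes and macrophages, had 7.97, 139.7 and 116 CPM, against 6.33, 13.2 and 11.4 CPM (3.61, SE 0.28, adjusted p = 6.1e-05). NKG7, a cytotoxic granule protein, had 1.41, 2.88 and 8.27 CPM, against 0.837, 1.05 and 0.597 CPM (2.74, SE 0.52, adjusted p = 0.00482). Replicate 1 was above every EmptyCapsid library in CD3E and NKG7, and in 11 of the 30 T cell genes, near the 32.4% of all genes tested, and inside the range in CD52. The summed T cell list was 92.9, 297 and 332 CPM, against 95.1, 43.6 and 84.2 CPM. CD52, which macrophages also express, alone gave 139.7 and 116 CPM of the sums of replicates 2 and 3.

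IGHM, the heavy chain of immunoglobulin M, had 0.733, 181 and 444 CPM in miSCA7Stuffer, against 0.733, 0.524 and 0.796 CPM in EmptyCapsid (log2 fold change 8.80, SE 0.64, adjusted p = 4.82e-05). JCHAIN, which joins immunoglobulin M and A into polymers, had 1.83, 183 and 218 CPM, against 1.86, 1.31 and 0.962 CPM (7.15, SE 0.77, adjusted p = 0.00036), and the kappa constant region IGKC had 2.63, 507 and 775 CPM, against 2.80, 2.62 and 3.78 CPM. Replicate 1 was inside the EmptyCapsid range for IGHM and JCHAIN and replicates 2 and 3 were far above it. The B cell surface marker MS4A1 did not pass, at 0.0611, 0.703 and 4.32 CPM, against 0.366, 1.80 and 1.39 CPM (1.07, SE 1.03, adjusted p = 0.457), while the plasma cell genes MZB1 and SDC1 rose by 5.68 and 4.43. The rule also took IGLV7-43, a variable segment with 0, 25.6 and 0.135 CPM and 2 reads in all of EmptyCapsid, and mml-mir-650a-2, with 0.0306, 0.562 and 203 CPM and 1 read in EmptyCapsid. A single library decided each: without miSCA7Stuffer replicate 2 the adjusted p of IGLV7-43 was 0.698, and without replicate 3 that of mml-mir-650a-2 was 0.432. Both calls were lost as well when any 1 EmptyCapsid library was left out (adjusted p 0.0669 to 0.103).

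Of 29 chemokines and cytokines, 20 rose and 2 fell in replicates 2 and 3 (median log2 fold change 2.30). Among them CCL18 and CCL22 had 0 EmptyCapsid reads and could not fall. CCL18, an alternative-activation chemokine of macrophages and dendritic cells, had 0, 2.39 and 7.06 CPM in miSCA7Stuffer and 0 reads in every EmptyCapsid library, so replicates 2 and 3 were at least 149.8-fold higher against a floor of 3 reads over the EmptyCapsid group. IL1A, interleukin 1 alpha, had 0.0611, 4.68 and 5.26 CPM, against 0.262, 0.112 and 0.0995 CPM (4.87, SE 0.46, adjusted p = 0.000177). CXCL14, a constitutive chemokine, fell, at 62.3, 19.4 and 17.5 CPM, against 97.1, 121 and 142 CPM (-2.72, SE 0.26, adjusted p = 0.00018), with replicate 1 also below the EmptyCapsid range. Of 20 genes of leukocyte adhesion and entry, 15 rose and 1 fell (median 1.68), and CCR7, with 0 EmptyCapsid reads, could not fall. The chemokine receptor CXCR4 had 4.28, 135 and 138 CPM, against 9.08, 8.91 and 4.84 CPM (4.15, SE 0.29, adjusted p = 3.93e-05), and ITGAL and ICAM1, an integrin chain of leukocytes and its ligand, rose by 3.62 and 3.14.

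**Figure D5:**
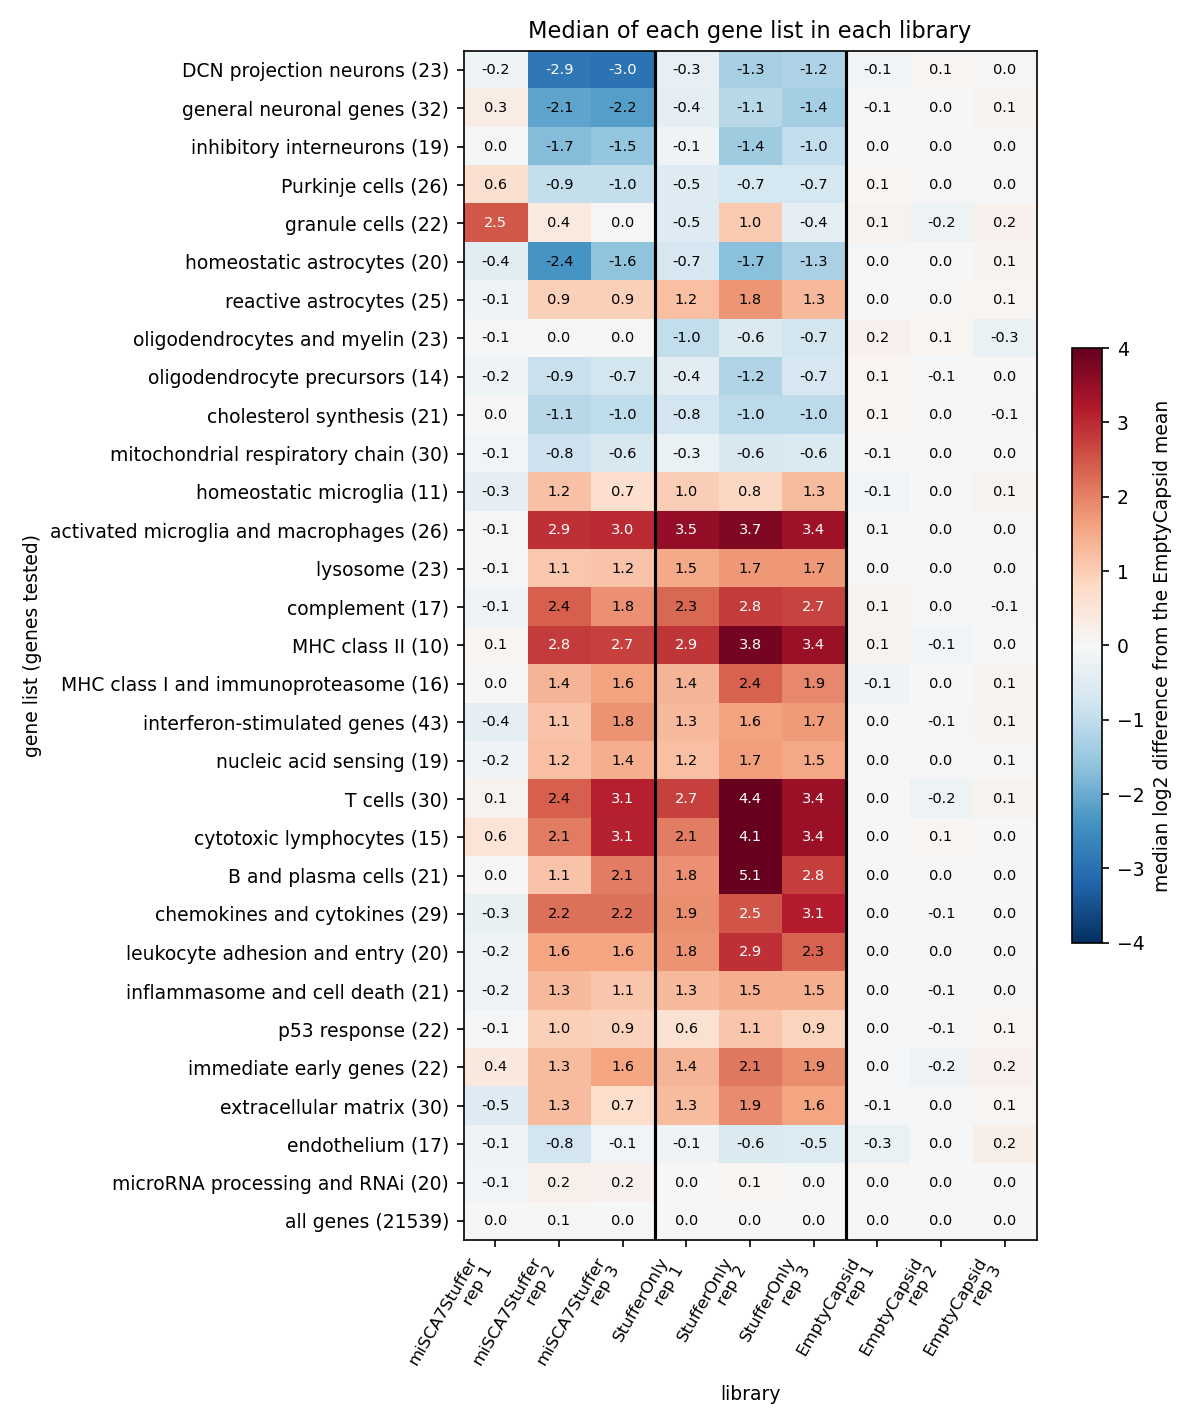
Median log2 difference of each gene list from the EmptyCapsid mean in each library of miSCA7Stuffer, StufferOnly and EmptyCapsid, with the number of genes tested in parentheses; red is higher and blue lower. Replicate 1 of miSCA7Stuffer is at 0.15 in T cells, -0.37 in interferon-stimulated genes and 2.48 in granule cells, and replicates 2 and 3 are at -2.10 and -2.19 in general neuronal genes.

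Stress and death pathways rose in replicates 2 and 3. Of 22 p53 response genes 13 rose and 0 fell (median log2 fold change 0.89), of 21 genes of inflammasomes and cell death 16 rose and 1 fell (1.20), of 16 NF-kB response genes 12 rose and 0 fell (0.90), and of 22 immediate early genes 11 rose and 0 fell (1.57). CDKN1A, the cell cycle inhibitor p21, had 2.99, 89.0 and 148 CPM in miSCA7Stuffer, against 1.31, 0.786 and 1.66 CPM in EmptyCapsid (log2 fold change 6.54, SE 0.60, adjusted p = 0.00015). MDM2, the ubiquitin ligase that p53 induces against itself, had 84.5, 229 and 208 CPM, against 108, 94.6 and 90.8 CPM (1.14, SE 0.10, adjusted p = 0.000142). BCL2A1, an anti-apoptotic protein of leukocytes, had 0, 12.6 and 11.2 CPM, against 0.105, 0.0749 and 0.133 CPM (6.75, SE 0.27, adjusted p = 7.28e-06). JUN, a subunit of AP-1, had 42.7, 115 and 109 CPM, against 32.9, 27.3 and 31.4 CPM (1.86, SE 0.10, adjusted p = 1.64e-05). Replicate 1 was above the EmptyCapsid range in CDKN1A and JUN and below it in MDM2 and BCL2A1.

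The mitochondrial and protein folding lists were lower or mixed. Of 30 nuclear genes of the respiratory chain, 25 fell and 0 rose in replicates 2 and 3 (median log2 fold change -0.79). UQCRB, a subunit of complex III, had 71.0, 31.6 and 28.6 CPM in miSCA7Stuffer, against 80.1, 79.2 and 80.4 CPM in EmptyCapsid (log2 fold change -1.42, SE 0.21, adjusted p = 0.00153), with replicate 1 also below EmptyCapsid. Of 13 heat shock genes 5 fell and 0 rose (median -0.49). Of 25 genes of the unfolded protein response 11 rose and 2 fell (median 0.36), and HERPUD1, of endoplasmic reticulum protein disposal, had 36.0, 91.0 and 75.8 CPM, against 34.6, 36.9 and 35.5 CPM (1.21, SE 0.15, adjusted p = 0.000609). Of 19 genes of oxidative stress and iron, 10 rose and 3 fell (median 0.58). The falls of this list and of the unfolded protein response were under the 16.8% of all genes tested called lower. FTL, the light chain of ferritin, had 453, 2085 and 2248 CPM, against 523, 589 and 556 CPM (1.95, SE 0.16, adjusted p = 8.38e-05). GPX1, a glutathione peroxidase, rose by 3.68.

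Of 30 genes of the extracellular matrix 15 rose and 1 fell in replicates 2 and 3 (median log2 fold change 1.04). The summed level of the matrix list went the other way, at 2224, 2688 and 2147 CPM in miSCA7Stuffer, against 3363, 3488 and 4150 CPM in EmptyCapsid, with replicate 1 also below. The membrane metalloprotease MMP14 had 17.1, 174 and 179 CPM in miSCA7Stuffer, against 13.3, 13.3 and 10.4 CPM in EmptyCapsid (log2 fold change 3.82, SE 0.30, adjusted p = 6.81e-05), and COL1A1, a fibrillar collagen, had 2.75, 139.6 and 52.5 CPM, against 6.28, 5.09 and 4.51 CPM (4.16, SE 0.64, adjusted p = 0.00185). Of 17 endothelial genes 2 rose and 3 fell (median -0.40), and the tight junction gene CLDN5 had 32.0, 16.1 and 24.4 CPM, against 22.6, 26.7 and 30.2 CPM, without passing (-0.40, SE 0.24, adjusted p = 0.23). PECAM1, an adhesion molecule of endothelium and leukocytes, had 26.4, 85.8 and 74.1 CPM, against 19.7, 24.9 and 27.7 CPM (1.71, SE 0.28, adjusted p = 0.00253). Of 11 genes of pericytes and smooth muscle, 2 rose and 2 fell. These counts and those of endothelium are near the 15.6% higher and 16.8% lower over all genes tested. They are no result about vessels. Of 14 meningeal genes 5 rose and 2 fell, with summed levels of 1756 to 2320 CPM in miSCA7Stuffer, against 1821 to 2059 CPM in EmptyCapsid. Of 11 choroid plexus and ependymal genes, 1 rose and 0 fell, and their sum was 33.1 to 45.2 CPM, against 37.7 to 49.8 CPM. Of 25 proliferation genes, 10 rose and 3 fell (median 0.88), and the 7 red cell genes present in the tables, of which 3 were tested and 0 passed, summed to 2.70 to 4.95 CPM, against 3.18 to 9.75 CPM. The falls of the meningeal and proliferation lists and the 1 choroid rise were under the shares of all genes and are no result.

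An artificial microRNA passes through the cell's own microRNA machinery. Of 20 genes of that machinery, 7 rose and 1 fell in replicates 2 and 3 (median log2 fold change 0.16). DICER1, which cuts microRNA precursors, had 208, 419 and 428 CPM in miSCA7Stuffer, against 233, 245 and 234 CPM in StufferOnly and 285, 273 and 231 CPM in EmptyCapsid. Replicates 2 and 3 were above all other libraries and replicate 1 was the lowest, so the log2 fold change was 0.67 with replicates 2 and 3 (SE 0.11, adjusted p = 0.0027) and 0.43 with all 3 (SE 0.25, adjusted p = 0.324). TUT7, a uridylyl transferase that tags microRNA precursors, had 45.9, 164 and 128 CPM, against 53.3, 51.2 and 55.3 CPM in EmptyCapsid (1.44, SE 0.12, adjusted p = 0.000108), and the Argonaute AGO4 had 29.8, 56.6 and 50.4 CPM, against 36.3, 34.6 and 35.3 CPM (0.58, SE 0.11, adjusted p = 0.00396). Among 29 inherited ataxia genes, 4 rose and 11 fell (median -0.26). The 4 rises were under the 15.6% of all genes tested called higher and are no result. The share of all genes called lower was 16.8%.

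The difference between miSCA7Stuffer and StufferOnly was tested directly. With all 3 libraries of each, edgeR called 0 of 20882 genes (0.0%), against 2117 without adjustment (10.1%) and 476 by DESeq2. With replicates 2 and 3 it called 193 of 21539 genes higher (0.896%) and 150 lower (0.696%) in miSCA7Stuffer. These calls rested on few libraries: 0 were left without miSCA7Stuffer replicate 2 or replicate 3, 16, 6 and 143 without EmptyCapsid replicate 1, 2 or 3, and 576 or 619 without StufferOnly replicate 1 or 2. With the 2 groups alone in the fit the count was 0.

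Some neuronal lists were lower than in StufferOnly in replicates 2 and 3. Of the 23 DCN projection neuron genes, 10 were lower and 0 higher (median log2 fold change -1.96), and of 32 general neuronal genes 8 were lower and 0 higher (median -1.20). Of 19 genes of inhibitory neurons 3 were lower and 0 higher (median -0.93). Among 26 Purkinje and 22 granule genes 0 were called (medians -0.26 and 0.05), near the 1.59% of all genes. SLC17A6 had 5.17 and 4.72 CPM in miSCA7Stuffer replicates 2 and 3, against 112, 53.2 and 53.7 CPM in StufferOnly, a log2 fold change of -3.80 (SE 0.37, adjusted p = 0.0161). All 3 StufferOnly libraries were in turn below EmptyCapsid. NEFH had 15.1 and 31.4 CPM in replicates 2 and 3, against 623, 283 and 270.4 CPM in StufferOnly (-4.0, SE 0.52, adjusted p = 0.0238). TAFA1, CHRNA2 and SCRT2, a transcription factor of neurons, were lower by 3.77, 3.72 and 3.60. Over all genes 1.59% were called against StufferOnly in either direction, and the immune lists were near that share, which is no result about them: among 43 interferon-stimulated genes 0 were called either way (median -0.04), among 17 for complement 0 (-0.35), among 30 for T cells 0 (-0.72) and among 26 for macrophages 1 (-0.38). Among 16 genes of MHC class I and the immunoproteasome 1 was lower (median -0.33), TAPBPL, a peptide editor of class I molecules, also named after its values were seen (log2 fold change -2.05, SE 0.29, adjusted p = 0.0271), and among 10 of MHC class II and 21 of B and plasma cells 0 were called, with medians of -0.64 and -0.70. The gene of the macrophage list, named after its values were seen, was APOE, a lipid carrier, at 1361 and 1345 CPM in replicates 2 and 3, against 2465, 2747 and 2377 CPM in StufferOnly (-0.82, SE 0.12, adjusted p = 0.0271).

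Higher than in StufferOnly were 6 of 23 oligodendrocyte genes, with 0 lower (median log2 fold change 0.74). The list's median log2 difference from the EmptyCapsid mean was -0.06, -0.01 and -0.01 in miSCA7Stuffer and -0.99, -0.58 and -0.75 in StufferOnly. MAL, a myelin membrane protein, had 68.9, 80.6 and 65.1 CPM in miSCA7Stuffer, against 31.1, 31.7 and 30.5 CPM in StufferOnly, and all 3 miSCA7Stuffer libraries were above all StufferOnly libraries (replicates 2 and 3: 1.31, SE 0.15, adjusted p = 0.0227). PAQR6, a progestin receptor family member, had 511, 560.0 and 481 CPM, against 188, 159 and 226 CPM (replicates 2 and 3: 1.53, SE 0.17, adjusted p = 0.0161). In EmptyCapsid MAL had 83.0, 63.4 and 59.1 CPM and PAQR6 had 593, 534 and 462 CPM. StufferOnly thus lay below EmptyCapsid in both genes. The largest rises by the rule were OTOP1, CYP7B1, OVCH2, SH2D6 and TM4SF18. CYP7B1, an oxysterol hydroxylase, had 70.6, 189 and 146 CPM, against 47.1, 53.3 and 47.4 CPM (replicates 2 and 3: 1.84, SE 0.16, adjusted p = 0.0161). DICER1 was higher by 0.92 (SE 0.11, adjusted p = 0.0238). All of these calls are from replicates 2 and 3, and with all 3 libraries none passed in edgeR.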

How the data were processed

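RNA from macaque DCN was made into ribosomal-RNA-depleted directional libraries (NEBNext Ultra II, QIAseq FastSelect), per the labels' protocols. The authors deposited raw read counts per gene from featureCounts, with reads overlapping several genes counted in each, per the file headers. STAR 2.6.0c and DESeq2 are named in the submitters' processing notes; no build, annotation or strand setting is named in them. The tables hold 34847 gene IDs, 24009 with a symbol, and 8 vector features, which were kept out of library sizes and gene tests. HBB is not analysed here, and some genes that the naming rule took are not reported here.

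Counts were tested with edgeR 4.0.16 (R 4.3.3): filterByExpr (minimum count 10, total 15), TMM scaling, and the quasi-likelihood test on miSCA7Stuffer, EmptyCapsid and StufferOnly together, with no covariate and Benjamini-Hochberg adjustment over all genes at 0.05. CPM are TMM-scaled. Standard errors are the log2 fold change divided by the square root of F. Fold changes of low genes depend on a prior count of 0.125; genes with 0 EmptyCapsid reads are given as bounds from 3 reads over the group, and genes with 1 to 3 reads without a fold. Vector features are per 1000000 reads in genes, with exact Poisson intervals; intervals and floors cover counting error only. Libraries were grouped by title, and p-values measure the spread between these samples. Leaving out replicate 1 rests on its vector reads.

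The rule for named genes took ATXN7 and ATXN1, the 10 largest called changes in each direction (5 against StufferOnly, and the 5 with the smallest p where none passed) above a log2 CPM of 1, the 3 most significant genes of each list and the defining markers of cell types; exceptions are stated where they occur. The comparison, the gene lists and the tests were chosen with earlier results of these data known. For a symbol with several IDs, the ID with the highest mean count was used. The scripts were tested on simulated data. Alternatives were DESeq2 1.42.0, DESeq2-type size factors in edgeR, no filter, only the 2 groups compared, a replicate block, TMM-scaled vector reads and leaving out each library. Python 3.11.15, pandas 2.3.3, scipy 1.17.1 and matplotlib 3.10.9 were used. Replicate numbers do not pair the samples: the correlation of deviations of same-numbered libraries was -0.0148, 0.037 and -0.0855.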

Additional observations from a re-analysis of the deposited data

Results flagged for a closer look

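Among the vector features, 3 that stood outside the gene comparisons had reads in miSCA7Stuffer replicates 2 and 3 above the EmptyCapsid level. The feature named Rep2 had 18.75 and 17.07 RPM in replicates 2 and 3 and 0 in replicate 1, against 0, 0.0702 and 0.0636 RPM in EmptyCapsid. Rep2 names an AAV replication gene, and the feature had 11.3, 26.6 and 7.79 RPM in StufferOnly. The feature named Cap1, after a capsid gene, had 17.77 and 14.01 RPM in replicates 2 and 3 and 0.0606 RPM in replicate 1, against 0.0503, 0 and 0 RPM in EmptyCapsid, and 8.62, 16.7 and 6.92 RPM in StufferOnly. The feature named miS1 had 1.434 and 1.335 RPM in replicates 2 and 3, from 38 and 28 reads, against 0 reads in replicate 1 and in every EmptyCapsid and StufferOnly library. A count of 0 allows up to 0.0754 to 0.105 RPM in EmptyCapsid and 0.092 to 0.135 RPM in StufferOnly. The miS1 feature is named for another microRNA than the one in the group's title, and the sources do not say what sequence it covers. The name of the vector genome feature holds miS1 as well.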

How the results depend on the processing

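With all 3 miSCA7Stuffer libraries, DESeq2 called 1507 genes higher and 832 lower than EmptyCapsid, and with only the 2 groups compared edgeR called 0 higher. Leaving out each library gave 0 to 3367 genes higher and 0 to 3616 lower, the high ends without miSCA7Stuffer replicate 1. With replicates 2 and 3, every alternative that kept all libraries stayed within 1.5 times of 3367 and 3616, the replicate block giving 2433 and 2725, and leaving out each library gave 1928 to 3714 higher and 1664 to 4011 lower.

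Against StufferOnly with all 3, DESeq2 called 476 genes and edgeR with no filter 1, and leaving out each library gave 0 to 343. With replicates 2 and 3 the 343 genes became 0 with only the 2 groups, 1931 with DESeq2, 680 with no filter and 1 with the replicate block, and leaving out each library gave 0 to 619. The replicate numbers pair no samples, so the block is a description. Against EmptyCapsid, IGLV7-43 and MOBP no longer passed under it (adjusted p = 0.0895 and 0.106). The log2 difference in vector reads was 7.91 with TMM-scaled library sizes. C3 and MS4A1, which did not pass, changed sign when a library was left out, with log2 fold changes of -0.22 to 0.55 and -0.77 to 1.88. Causes were not tested. With 2 or 3 libraries a group, permutation cannot go below 0.1, and genes of a few reads are limited by depth.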
